A study of Mus musculus with 10 samples.

Results

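Claudins, cadherins, desmosomal cadherins, occludin and the zonula occludens proteins are the genes that hold neighbouring cells together and seal the space between them. The rule took the representative transcript of every gene whose symbol is a numbered claudin or cadherin, a desmoglein or desmocollin, occludin or a numbered Tjp gene. It found 49 of the 18594 genes counted, namely 21 claudins, 19 cadherins, 5 desmosomal cadherins and 4 genes of the occludin and Tjp group. Another 12 matching symbols were listed in the FPKM table only, each at 0 FPKM in every library.

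RNA was sequenced from 10 libraries of mouse intestinal cells in 4 groups. The 3 Foxl1 positive libraries came from sorted cells of mice with Foxl1Cre, a Cre recombinase driven from the Foxl1 gene of subepithelial mesenchymal cells (telocytes), and with Rosa-YFP (replicates 1 and 2) or Rosa-mTmG (replicate 3) as the Cre reporter. The 3 Foxl1 negative libraries came from Foxl1Cre; Rosa-mTmG mice, and the strain label of both sorts is mixed. The 2 Lgr5 positive libraries, also of mixed strain, carry a genotype label spelled Lr5-EGFP-IRES CreERT2 and are labelled male (replicate 1) and female (replicate 2). The 2 Differentiated epithelium libraries came from wild type C57BL/6J mice. Genotype and strain thus cannot be told apart from cell type where Differentiated epithelium is compared, nor can genotype where Lgr5 positive cells are. No animal is named per library, no age is given, the design text names 3 mice for the mesenchymal sorts, and a reporter sort holds whatever cells the Cre line and gate include. The tissue label reads intestine mesenchyme on all 10 libraries, the epithelial ones included.

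Cadherins are calcium-dependent adhesion proteins whose tails bind catenins and, through them, actin. Desmogleins and desmocollins are cadherins of the desmosome, which is anchored to keratin filaments. Claudins span the membrane at the tight junction, where some seal the path between cells and others, among them claudin-2 and claudin-15, form channels for small cations and water. Occludin sits beside them, and the ZO proteins, among them ZO-1 (Tjp1) and ZO-3 (Tjp3), join both to the cytoskeleton. In the gut, the make-up of the tight junction is known to differ between crypt and villus.

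Levels are in CPM, counts scaled to a common library size, with 1 scaling of all 10 libraries, and folds are log2 ± SE of the first-named group over the second from edgeR's quasi-likelihood test on counts, adjusted over all genes tested, with 0.05 as the threshold. Total counts ran from 1311205 to 99628145 per library. The Foxl1 negative libraries stood apart: 1992, 4097 and 5966 genes had a count in replicates 1, 2 and 3, against 14332 to 14817 in Foxl1 positive libraries. Outside that group, 306 genes reached 100 CPM in all 7 libraries; 55.2%, 27.8% and 11.8% of these had no count in Foxl1 negative replicates 1, 2 and 3. They also share 1 sequencing run while every other library has a run of its own, so run and group cannot be told apart. Foxl1 was at 0.155, 31.0 and 11.6 CPM in Foxl1 positive replicates 1, 2 and 3 and had no count in Foxl1 negative or Lgr5 positive libraries. Lgr5 was at 268.6 and 375 CPM in Lgr5 positive libraries, against 0.438 and 0.518 CPM in Differentiated epithelium. Fibroblast and telocyte markers (8 of 8 counted) summed to 6179, 3075 and 73440 CPM in Foxl1 positive replicates 1, 2 and 3, and epithelial markers (8 of 8 counted) to 2234, 2399.7 and 141 CPM. In bulk libraries such as these, more cells of a type and more RNA per cell cannot be told apart.

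Of the 49 members, 21 reached a mean of 10 CPM in at least 1 group, 17 stayed under 1 CPM in every group, and 31 passed the filter on low counts in at least 1 comparison. Members without any count numbered 13 in Foxl1 positive, 36 in Foxl1 negative and 16 among Lgr5 positive cells, and 7 in Differentiated epithelium. The 21 members above 10 CPM included 8 claudins, 7 cadherins and 2 desmosomal cadherins. All 21 averaged 10 CPM or more in Foxl1 positive cells, a group that holds both epithelial and mesenchymal transcripts, and 15 did so in each epithelial group.

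**Figure D1:**
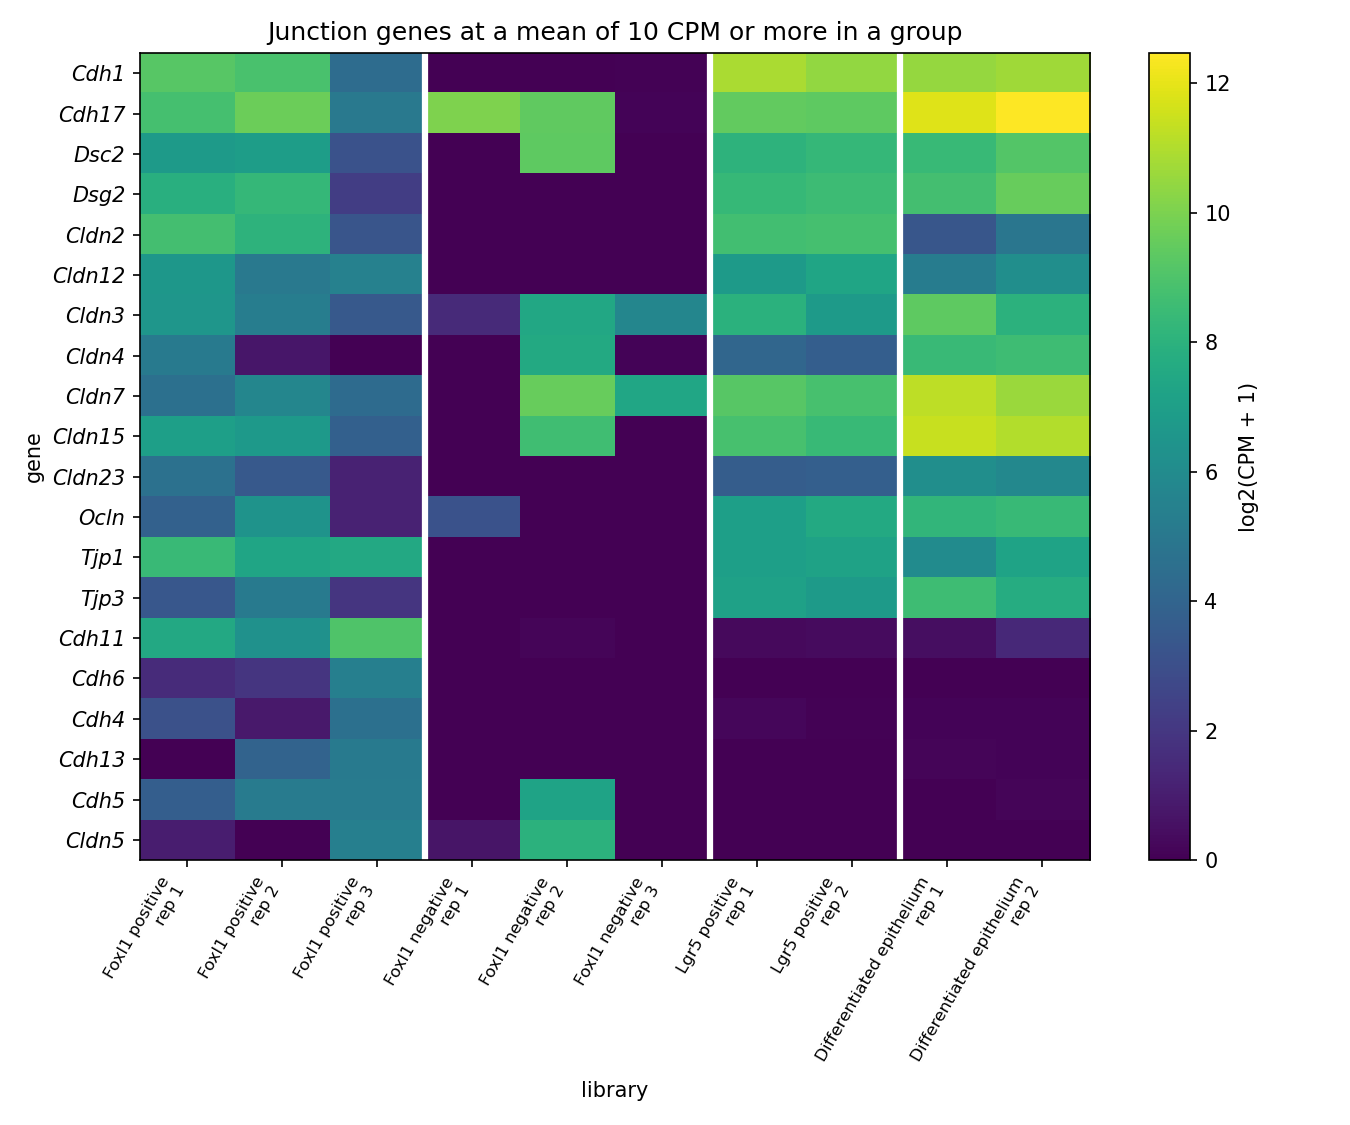
Levels of 20 members at a mean of 10 CPM or more in a group, as log2(CPM + 1) by colour, with genes in rows and the 10 libraries in columns. The upper 14 rows hold the genes of epithelial junctions, each at 9.24 CPM or more in every Lgr5 positive and Differentiated epithelium library. Among them Cldn2 is dimmer in Differentiated epithelium, and Cldn4 and Cldn23 are dimmer in Lgr5 positive cells. The lower 6 rows hold genes at or near 0 in both epithelial groups.

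Of the 11 claudins tested, 10 differed between the epithelial populations, 5 in each direction. Between Lgr5 positive cells and Differentiated epithelium, 5 members were higher and 10 lower of the 24 tested, where 34.4% of all 14534 genes tested were higher and 31.9% lower. All 5 that were higher were claudins (Cldn2, Cldn8, Cldn12, Cldn14 and Cldn19). Of these, Cldn8, Cldn14 and Cldn19 passed the filter on low counts through the Lgr5 positive libraries alone, so they could come out higher only. The 10 that were lower included 5 claudins (Cldn3, Cldn4, Cldn7, Cldn15 and Cldn23), Cdh17, Dsg4, Ocln and Tjp3. The median log2 fold change of the 24 was -0.88, beside 0.12 over all genes tested. Enterocyte markers (7 of 7 counted in each library) summed to 957 and 1367 CPM in Lgr5 positive libraries, against 162980 and 133846 CPM in Differentiated epithelium, and crypt base markers (4 of 4) to 5701 and 7913 CPM in Lgr5 positive libraries, against 17.6 and 33.2 CPM in Differentiated ones. With all 10 libraries in 1 fit, neither these calls nor those of Foxl1 positive cells against either epithelial group were made. The part of these cell types in the differences was not tested.

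Cldn2, a cation and water channel, had the largest positive log2 fold change among members with more than 3 counts in each group. It was at 419 and 438 CPM in the Lgr5 positive libraries, against 9.24 and 28.7 CPM in Differentiated epithelium. Both Lgr5 positive libraries thus lay far above both Differentiated libraries, and the log2 fold change was 4.50 ± 0.55 (adjusted p = 0.000196). The gene lies at chrX:136335347-136345927 (mm9, plus strand). Its share of all claudin FPKM was 12.5% and 17.5% in the Lgr5 positive libraries, against 0.0738% and 0.336% in Differentiated epithelium.

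Cldn4, a sealing claudin of many epithelia, had the largest negative one. It was at 16.5 and 12.3 CPM in Lgr5 positive cells, against 352 and 382 CPM in Differentiated epithelium. Neither group's spread came near the gap, and the log2 fold change was -4.67 ± 0.34 (adjusted p = 2.29e-05). Cldn23, a claudin known from the gut surface, had 11.8 and 12.5 CPM in Lgr5 positive cells, against 69.5 and 56.4 CPM in Differentiated epithelium (log2 -2.36 ± 0.31, adjusted p = 0.00028).

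Cldn15, the second intestinal channel claudin, was lower in Lgr5 positive cells and so ran opposite to Cldn2. It was at 464 and 341 CPM there, against 2719 and 2108 CPM in Differentiated epithelium, a log2 fold change of -2.58 ± 0.32 (adjusted p = 0.000224). Cldn7, a claudin found along the lateral membrane of gut cells, had 602 and 452 CPM in Lgr5 positive cells, against 2431 and 1538 CPM in Differentiated epithelium (log2 -1.91 ± 0.34, adjusted p = 0.00142). The groups did not overlap for either gene. Per length, Cldn7 and Cldn15 were the most abundant claudins of both epithelial groups: Cldn7 made up 42.0% and 42.1% of claudin FPKM in Lgr5 positive cells, against 45.4% and 42.1% in Differentiated epithelium. The share of Cldn15 was 22.9% and 22.5% in Lgr5 positive cells, against 35.9% and 40.8% in Differentiated epithelium.

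Cldn3, another sealing claudin, was at 250.2 and 109.6 CPM in Lgr5 positive cells, against 655 and 261 CPM in Differentiated epithelium. The lower Differentiated library lay close to the higher Lgr5 positive library, and the log2 fold change of -1.34 ± 0.52 just passed (adjusted p = 0.0474). That call was lost without Differentiated epithelium replicate 1 or Lgr5 positive replicate 2. Cldn12, a claudin that lacks the usual tail for binding ZO proteins, was at 111 and 159 CPM in Lgr5 positive cells, against 36.7 and 69.7 CPM in Differentiated epithelium (log2 1.34 ± 0.38, adjusted p = 0.0135). Its direction is that of Cldn2, with a smaller fold.

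Of the 4 claudins tested that were under 10 CPM in both epithelial groups, 3 were called, all higher in Lgr5 positive cells. These 3 had at most 3 counts in Differentiated epithelium and passed the filter through the Lgr5 positive libraries alone. They could thus come out higher only, and their count is a description. The other, Cldn6, was at 0.222 and 0.047 CPM in Lgr5 positive cells, against 0.465 and 0.173 CPM in Differentiated epithelium. Cldn9, which did not pass the filter, had no count in Lgr5 positive cells, against 0.356 and 0.197 CPM in Differentiated epithelium. Cldn8, a sealing claudin of the distal gut and kidney tubule, was at 6.73 and 7.91 CPM in Lgr5 positive cells, against 0 and 0.074 CPM in Differentiated epithelium. Differentiated epithelium held 3 counts, which gives a ratio of 194 (95% counting interval 66.1 to 940.5, adjusted p = 0.00012). Cldn19, a claudin known from kidney and retina, was at 0.685 and 0.347 CPM in Lgr5 positive cells, against 0.0273 and 0.0247 CPM in Differentiated epithelium, a ratio of 17.5 (interval 4.68 to 148, adjusted p = 0.00719). Cldn14, known from the inner ear and kidney, was at 0.322 and 0.15 CPM in Lgr5 positive cells, against 0.0273 and 0 CPM in Differentiated epithelium, a ratio of 15.8 (interval 2.64 to 644, adjusted p = 0.0304). The calls of Cldn14 and Cldn19 were lost without either Differentiated epithelium library, and that of Cldn14 also without Lgr5 positive replicate 1, with no filter and in DESeq2.

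**Figure D2:**
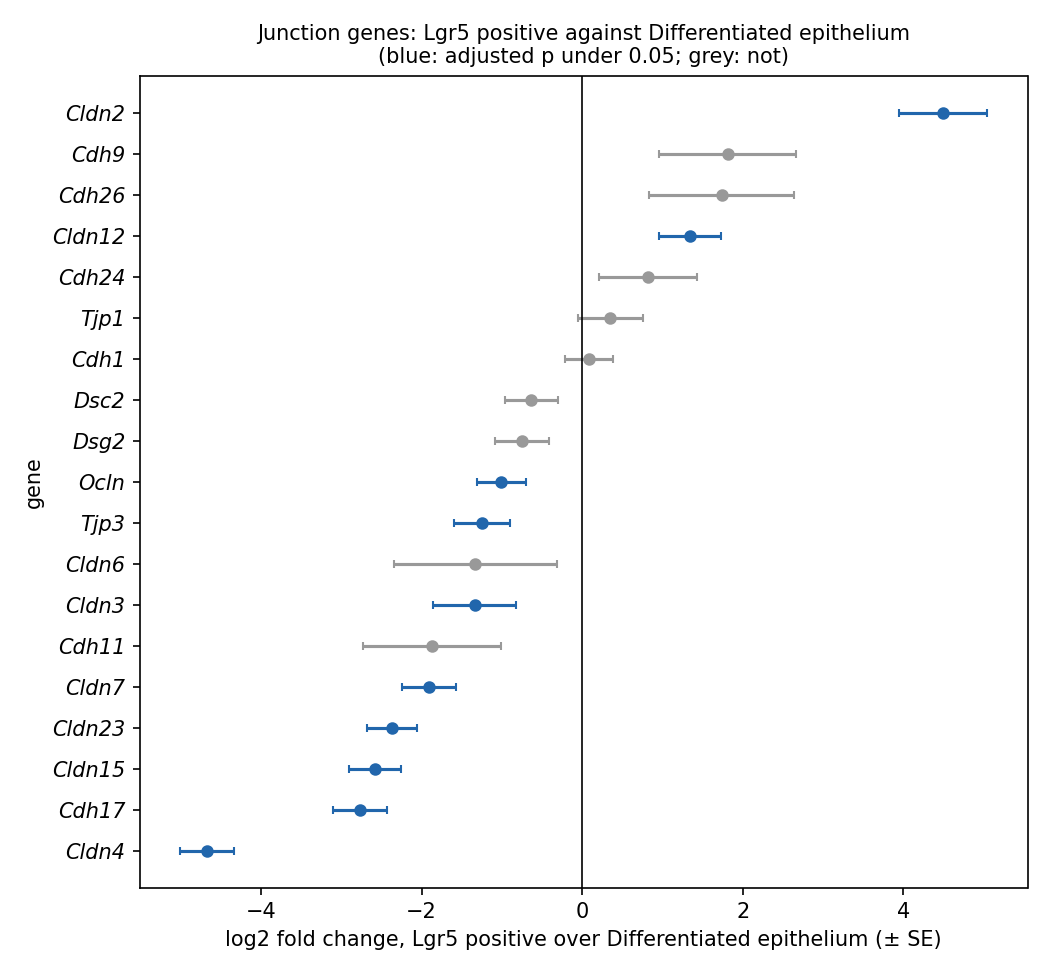
Log2 fold change ± SE of Lgr5 positive cells over Differentiated epithelium for tested members with more than 3 counts in each group (n = 2 libraries each), blue where the adjusted p was under 0.05. Cldn2 lies furthest right at 4.50 and Cldn4 furthest left at -4.67, with Cdh1 near 0.

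Promoter windows of the 5 claudins with the highest mean FPKM over the 4 epithelial libraries are shown, since these 5 genes held most claudin transcripts there and were all called between the epithelial groups, Cldn2 in 1 direction and the other 4 in the opposite one. Each runs 5′ to 3′ on the strand of the gene, 250 bases before to 50 bases after a RefSeq start (build GRCm38.p6, not the mm9 of the counts). Capitals mark CAGGTG or its reverse CACCTG, the E-box that the Snail and Zeb repressors are known to bind. The windows are Cldn7 at chr11:69965171-69965470 (plus strand), Cldn15 at chr5:136967619-136967918 (plus), Cldn3 at chr5:134985964-134986263 (plus), Cldn4 at chr5:134946885-134947184 (minus) and Cldn2 at chrX:139800558-139800857 (plus).
Cldn7: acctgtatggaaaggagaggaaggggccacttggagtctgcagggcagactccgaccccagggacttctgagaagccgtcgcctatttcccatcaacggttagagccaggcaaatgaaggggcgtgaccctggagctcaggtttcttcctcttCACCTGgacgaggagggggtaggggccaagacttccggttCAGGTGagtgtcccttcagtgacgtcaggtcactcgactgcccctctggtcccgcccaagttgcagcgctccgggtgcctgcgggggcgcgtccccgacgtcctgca
Cldn15: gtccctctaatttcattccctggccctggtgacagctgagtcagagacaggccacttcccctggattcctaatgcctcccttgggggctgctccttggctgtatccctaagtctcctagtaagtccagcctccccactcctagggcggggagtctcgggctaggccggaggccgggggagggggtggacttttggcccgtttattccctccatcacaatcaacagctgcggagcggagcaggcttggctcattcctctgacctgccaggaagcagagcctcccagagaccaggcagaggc
Cldn3: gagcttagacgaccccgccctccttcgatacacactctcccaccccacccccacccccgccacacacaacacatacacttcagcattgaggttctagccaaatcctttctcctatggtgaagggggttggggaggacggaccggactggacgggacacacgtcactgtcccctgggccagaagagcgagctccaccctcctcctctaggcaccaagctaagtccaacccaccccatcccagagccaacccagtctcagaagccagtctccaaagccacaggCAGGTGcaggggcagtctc
Cldn4: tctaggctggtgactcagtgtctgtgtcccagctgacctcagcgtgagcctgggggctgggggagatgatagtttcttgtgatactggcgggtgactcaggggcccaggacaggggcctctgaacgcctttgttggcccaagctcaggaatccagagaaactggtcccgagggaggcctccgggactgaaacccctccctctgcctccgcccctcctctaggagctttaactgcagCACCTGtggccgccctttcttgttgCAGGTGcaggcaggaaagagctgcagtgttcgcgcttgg
Cldn2: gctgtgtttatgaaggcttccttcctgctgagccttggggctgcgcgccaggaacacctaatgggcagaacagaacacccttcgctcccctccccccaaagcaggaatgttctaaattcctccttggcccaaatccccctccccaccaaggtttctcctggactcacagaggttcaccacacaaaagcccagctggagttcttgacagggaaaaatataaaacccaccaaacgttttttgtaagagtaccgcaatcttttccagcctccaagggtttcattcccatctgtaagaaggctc
Counted from 1 at the 5′ end of the window, Cldn7 held the E-box at 154 to 159 and at 194 to 199, Cldn4 at 237 to 242 and at 262 to 267, and Cldn3 at 282 to 287. A second RefSeq window of Cldn7 held none, nor did those of Cldn15 and Cldn2. The table held windows for 29 of the 49 members, of which 7 had the motif, and 23.1% of the 39 member windows held it, against 20.2% of all 32851 windows, both strands searched. The share among members is thus near the background, and a match describes letters only. Motif searches for TTTATNG and GGGCGG were also run: 2 and 16 of the 29 members held them, in windows that made up 5.13% and 48.7% of the members' windows, against 10.9% and 35.7% of all windows.

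**Figure D3:**
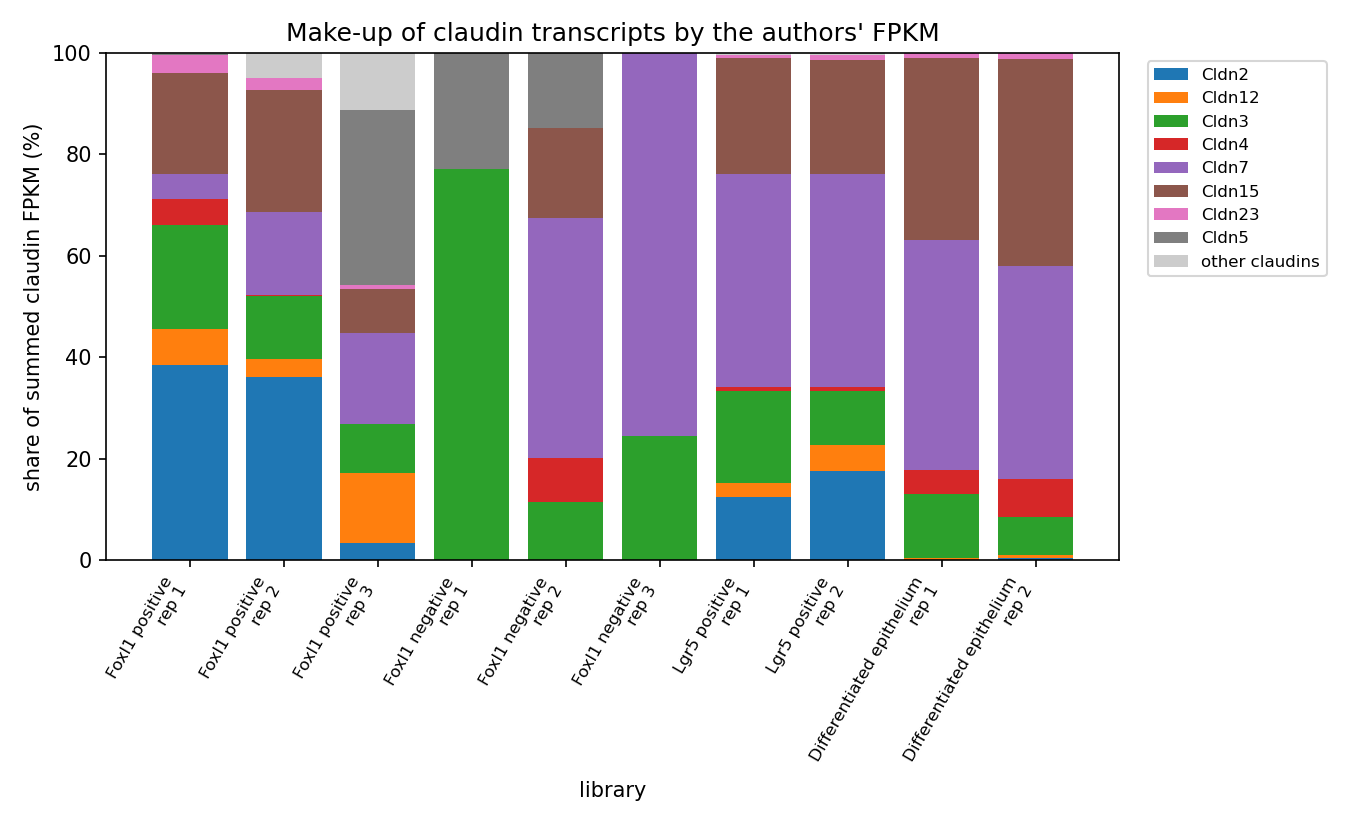
Share of each claudin in the summed claudin FPKM of each library, in percent, as stacked bars for the 10 libraries. Cldn2 fills 12.5% and 17.5% of the Lgr5 positive bars and under 1% of the Differentiated epithelium bars, while Cldn7 and Cldn15 fill most of all 4.

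E-cadherin, encoded by Cdh1, is the main adhesion protein of epithelial adherens junctions, and its gene was not called between the epithelial groups. Cdh1 (chr8:109127268-109194146, mm9) was at 1878 and 1415 CPM in Lgr5 positive cells, against 1455 and 1656 CPM in Differentiated epithelium. The ranges overlapped, with a log2 fold change of 0.09 ± 0.29 (adjusted p = 0.81) whose sign turned with median-of-ratios scaling (-0.03). Cdh17, the liver-intestine cadherin (chr4:11685304-11745052), was at 706 and 666 CPM in Lgr5 positive cells, against 3674 and 5672 CPM in Differentiated epithelium. It fell to a mean of 686 ± 28.8 CPM in Lgr5 positive cells, against 4673 ± 1413 CPM in Differentiated epithelium (SD, n = 2 each; log2 -2.77 ± 0.34, adjusted p = 0.000191). Within the summed FPKM of the 19 cadherins, Cdh1 therefore held 67.5% and 62.4% in Lgr5 positive cells, against 23.7% and 18.6% in Differentiated epithelium. The share of Cdh17 was 32.4% and 37.4% in Lgr5 positive cells, against 76.3% and 81.3% in Differentiated epithelium.

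The desmosomal cadherins of simple epithelium, Dsg2 and Dsc2, were not called. Dsg2 was at 325 and 373 CPM in Lgr5 positive cells, against 424 and 748 CPM in Differentiated epithelium, and Dsc2 at 265 and 315 CPM in Lgr5 positive cells, against 334 and 564 CPM in Differentiated epithelium. Both Differentiated libraries exceeded both Lgr5 positive libraries for each gene, but the spread between the Differentiated libraries was wide. Dsg4, a desmoglein best known from the hair follicle, had no count in Lgr5 positive cells, against 1.89 and 3.48 CPM in Differentiated epithelium (at least 139.5-fold lower, taking 3 counts over the group as the floor, adjusted p = 0.000274). It passed the filter on low counts through the Differentiated libraries alone, so it could come out lower only. Dsc3, a desmocollin of stratified epithelium, was counted in 1 library of each epithelial group and in no mesenchymal library. All 5 desmosomal cadherins lie in 1 cluster on chromosome 18, from Dsc3 at 20119431 to the end of Dsg2 at 20763027 (mm9).

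Among the tight junction partners, Ocln and Tjp3 were lower in Lgr5 positive cells and Tjp1 was not called. Ocln (occludin) was at 129 and 188 CPM in Lgr5 positive cells, against 299 and 338 CPM in Differentiated epithelium (log2 -1.01 ± 0.30, adjusted p = 0.0176). Tjp3, for ZO-3, was at 139 and 111 CPM in Lgr5 positive cells, against 384 and 213 CPM in Differentiated epithelium (log2 -1.25 ± 0.35, adjusted p = 0.0132). The groups did not overlap for either gene. Tjp1, for ZO-1, overlapped, with 129.9 and 144 CPM in Lgr5 positive cells, against 63.4 and 150.5 CPM in Differentiated epithelium (log2 0.35 ± 0.41, adjusted p = 0.466). Without Differentiated epithelium replicate 2, Tjp1 was called higher in Lgr5 positive cells (log2 1.08, adjusted p = 0.0124). Leaving out 1 library lost the call of Ocln (Lgr5 positive replicate 1) and of Tjp3 (Lgr5 positive replicate 2 or Differentiated epithelium replicate 1).

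The members that were higher in Foxl1 positive cells than in the epithelial groups were 4 cadherins. Against Lgr5 positive cells, 2 of 25 members tested were higher, where 4.84% of all 14259 genes were, and 1 was lower, where 0.884% were. Against Differentiated epithelium, 4 of 23 were higher, where 10.6% of 13876 genes were, and 3 were lower, where 7.19% were. Those that were higher were Cdh11 and Cdh5 in both comparisons, and Cdh2 and Cdh6 against Differentiated epithelium. Of these, Cdh2, Cdh5 and Cdh6 had at most 6 counts in an epithelial group. All 4, Cdh11 included, passed the filter on low counts through the Foxl1 positive libraries alone, so they could come out higher only. Those that were lower were Cldn7 in both, and Cldn15 and Tjp3 against Differentiated epithelium. The median log2 fold change of the tested members was -0.61 against Lgr5 positive cells and -1.42 against Differentiated epithelium, beside 0.06 and 0.32 over all genes. The comparisons share the Foxl1 positive libraries. Cdh1 and Cdh17 still took most of cadherin FPKM in 2 of these, with 42.7%, 28.4% and 2.50% for Cdh1 and 39.9%, 62.2% and 4.96% for Cdh17 in Foxl1 positive replicates 1, 2 and 3. Smooth muscle markers (5 of 5 counted) summed to 1254, 281 and 7341 CPM in Foxl1 positive replicates, against at most 0.356 CPM in the epithelial libraries, and their part in the differences was not tested.

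Cdh11, or OB-cadherin, a cadherin of fibroblasts and other mesenchyme (chr8:105156895-105309011, mm9), had the highest level of the 4. It was at 181, 77.4 and 518 CPM in Foxl1 positive replicates 1, 2 and 3, against 0, 0.133 and 0 CPM in Foxl1 negative, 0.262 and 0.291 CPM in Lgr5 positive and 0.356 and 1.68 CPM in Differentiated epithelium. Every Foxl1 positive library exceeded every other library. The log2 fold change was 10.01 ± 1.28 over Lgr5 positive cells (adjusted p = 0.0171) and 8.15 ± 1.45 over Differentiated epithelium (adjusted p = 0.0216). Over Foxl1 negative cells, which held 1 count, the ratio was 6347 (95% counting interval 1139 to 250751, adjusted p = 0.0126). The fibroblast and telocyte marker sum was highest in the library with the most Cdh11, Foxl1 positive replicate 3. In Foxl1 negative replicates 1, 2 and 3 (4, 7 and 7 of 8 counted) it was 8082, 12602 and 6498 CPM. Those sums exceeded the 6179 and 3075 CPM of Foxl1 positive replicates 1 and 2. The part of these cells in the differences was not tested. Cdh11 took 66.5% of cadherin FPKM in Foxl1 positive replicate 3, 13.4% in replicate 1 and 4.83% in replicate 2.

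Cdh5, or VE-cadherin, the adhesion protein of endothelial cells, was at 12.3, 35.0 and 35.3 CPM in Foxl1 positive replicates 1, 2 and 3. It was at 0, 152 and 0 CPM in Foxl1 negative replicates, absent from both Lgr5 positive libraries, and at 0.0273 and 0.123 CPM in Differentiated epithelium. Foxl1 positive cells were at least 1433-fold higher than Lgr5 positive cells (adjusted p = 0.0205) and higher than Differentiated epithelium by a log2 fold change of 8.58 ± 1.37 (adjusted p = 0.0173). Against Foxl1 negative cells the groups overlapped through replicate 2 (log2 -0.10 ± 2.72, adjusted p = 0.992). Without that library, which left Foxl1 negative cells with no count, Cdh5 was called higher in Foxl1 positive cells (adjusted p = 0.0216). Cldn5, the claudin of endothelial tight junctions, was at 1.01, 0 and 40.8 CPM in Foxl1 positive replicates, 0.605, 255 and 0 CPM in Foxl1 negative replicates, and 0 in all 4 epithelial libraries. It and Cdh5 thus had their highest level in the same Foxl1 negative library. Endothelial markers were all 8 counted in each Foxl1 positive library, summing to 138, 159.7 and 1342 CPM. In Foxl1 negative replicate 2, 6 of the 8 had no count, Pecam1 among them, and Tek alone gave 273 CPM; the sums were 1.21, 273 and 299 CPM in Foxl1 negative replicates. Epithelial libraries summed to 24.9 and 28.5 CPM in Lgr5 positive and 12.2 and 15.9 CPM in Differentiated libraries. Whether endothelial cells account for Cdh5 and Cldn5 in the mesenchymal sorts was not tested.

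Cdh2, or N-cadherin, known from mesenchyme, nerve and muscle, was at 17.2, 3.25 and 2.52 CPM in Foxl1 positive replicates and had 1 count in each of the epithelial groups. Over Differentiated epithelium the ratio was 764 (95% counting interval 136 to 30281, adjusted p = 0.0388), and over Foxl1 negative cells, with no count, at least 78.5-fold (adjusted p = 0.0118). Cdh6, or K-cadherin of kidney and other developing tissue, was at 1.86, 2.81 and 40.6 CPM in Foxl1 positive replicates and had no count in any of the other 7 libraries. It was at least 388-fold higher than in Differentiated epithelium (adjusted p = 0.0442) and, over Foxl1 negative cells, at least 155-fold higher (adjusted p = 0.0162). Most of both means rested on 1 library, replicate 1 for Cdh2 and replicate 3 for Cdh6.

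Other cadherins reached 10 CPM in a Foxl1 positive library without being called. Cdh4, or R-cadherin, was at 7.44, 0.786 and 23.4 CPM in Foxl1 positive replicates, against 0 in all Foxl1 negative, 0.181 and 0.0376 CPM in Lgr5 positive and 0.082 and 0.0986 CPM in Differentiated libraries. Cdh13, or T-cadherin, a cadherin held to the membrane by a lipid anchor, was at 0, 14.9 and 33.7 CPM in Foxl1 positive replicates, with no count in Foxl1 negative or Lgr5 positive cells and 0.109 and 0.074 CPM in Differentiated epithelium. Both varied widely among the Foxl1 positive libraries, and Cdh13 was absent from 1 of them. All calls against Lgr5 positive cells were lost when Foxl1 positive replicate 1 or 2, or either Lgr5 positive library, was left out. All against Differentiated epithelium were lost without either Differentiated library. Without Foxl1 positive replicate 1, Cdh6, Cldn15 and Tjp3 were lost, and without replicate 2, Cdh2, Cdh6 and Cldn15. DESeq2 called more members, 11 higher and 1 lower against Lgr5 positive cells and 13 higher and 8 lower against Differentiated epithelium.

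**Figure D4:**
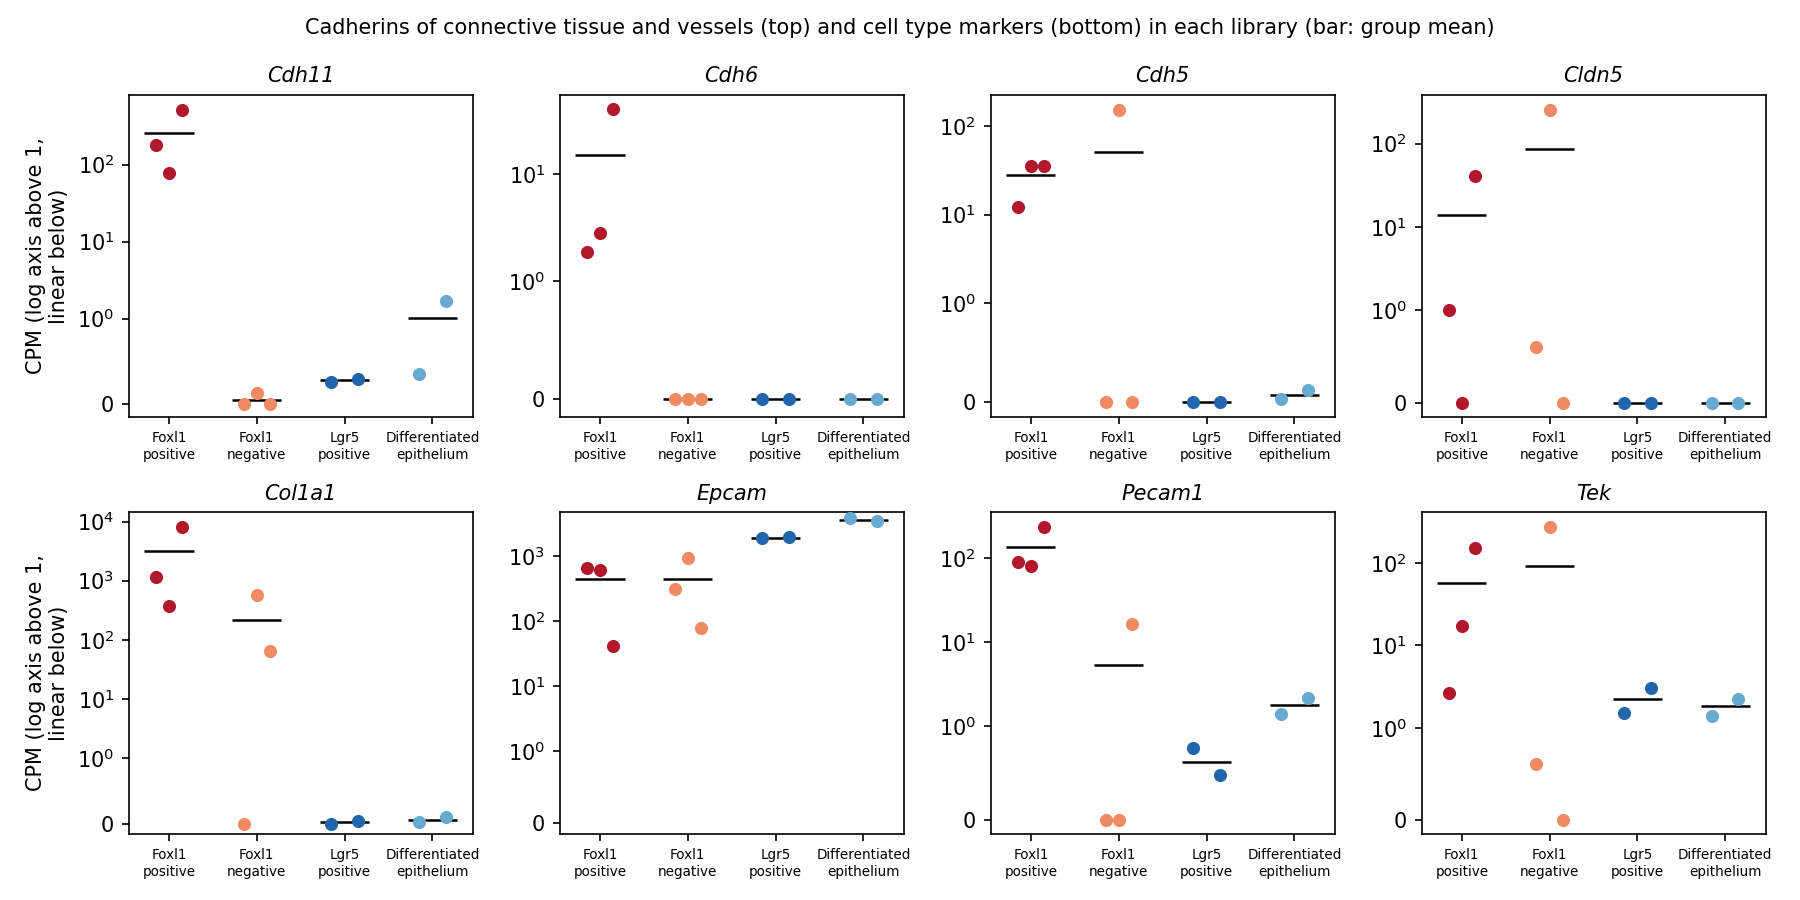
Levels in CPM of Cdh11, Cdh6, Cdh5 and Cldn5 (top) and of the markers Col1a1, Epcam, Pecam1 and Tek (bottom) in each library of the 4 groups, on an axis that is logarithmic above 1 CPM and linear below, with bars at group means. Cdh11 lies at 77.4 CPM or more in the 3 Foxl1 positive libraries and below 2 CPM elsewhere, while Cdh5 and Cldn5 peak in 1 Foxl1 negative library.

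The epithelial members were also present in Foxl1 positive libraries, some of them in step with Epcam across the 3 libraries and others not. Cdh1 was at 604, 477 and 20.4 CPM in Foxl1 positive replicates 1, 2 and 3, while Epcam, a surface protein of epithelial cells, was at 651, 618 and 40.4 CPM. Each of these genes was lowest in replicate 3, the Rosa-mTmG library. Cdh1 did not pass against Lgr5 positive cells (log2 -1.90 ± 1.25, adjusted p = 0.383) or Differentiated epithelium (log2 -1.82 ± 1.25, adjusted p = 0.312). Without replicate 3 Cdh1 was called lower in Foxl1 positive cells, at log2 -1.33 over Lgr5 positive cells (adjusted p = 0.0398) and -1.42 over Differentiated epithelium (adjusted p = 0.0469). With that setting included, Cdh1 was called lower in 4 of 13 alternatives against Lgr5 positive cells and 2 of 13 against Differentiated epithelium. Per count of Epcam, Cdh1 gave 0.928, 0.772 and 0.505 counts in Foxl1 positive replicates, 0.999 and 0.726 in Lgr5 positive and 0.385 and 0.475 in Differentiated libraries. The part of epithelial cells in the Foxl1 positive levels was not tested.

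Cldn2 in Foxl1 positive cells was at 422, 265 and 8.63 CPM, which was within the Lgr5 positive range in replicate 1, between the epithelial groups in replicate 2 and below every epithelial library in replicate 3. The log2 fold change was -0.61 ± 1.28 over Lgr5 positive cells (adjusted p = 0.805) and 3.89 ± 1.62 over Differentiated epithelium (adjusted p = 0.125), neither of which passed. Without replicate 3 Cldn2 was called higher than in Differentiated epithelium (log2 4.28, adjusted p = 0.00864), as it was in 3 of 13 alternatives, this one included. Cldn2 gave 38.4%, 36.1% and 3.38% of claudin FPKM in Foxl1 positive replicates. Per count of Epcam it gave 0.648, 0.429 and 0.214 counts there, against 0.223 and 0.225 in Lgr5 positive and 0.00244 and 0.00822 in Differentiated libraries. Of the crypt base markers, Olfm4 was at 440.2, 283 and 40.4 CPM in Foxl1 positive replicates, Lgr5 at 83.3, 9.20 and 2.74 CPM and Ascl2 at 9.54, 5.61 and 0.421 CPM, each lowest in replicate 3 as Cldn2 was. The fourth, Smoc2, was highest there (44.5, 75.4 and 389 CPM), so that the sums of the 4 were 578, 373 and 433 CPM. Paneth cell markers (4 of 4 counted) summed to 5090, 776 and 56.2 CPM in Foxl1 positive replicates. Those of Paneth cells summed to 4005 and 862 CPM in Lgr5 positive and 1027 and 449 CPM in Differentiated libraries. Enterocyte markers (7 of 7 counted) summed to 2055, 6957 and 64.8 CPM in Foxl1 positive replicates, also lowest in replicate 3. Goblet cell markers (4 of the 5 listed were counted) summed to 5018, 1177 and 16.6 CPM there. The part of any of these cell types in the level of Cldn2 was not tested.

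Cldn7 was the claudin called in Foxl1 positive cells against both epithelial groups. It was at 23.3, 52.0 and 19.6 CPM in Foxl1 positive replicates, below every epithelial library. Its log2 fold change was -3.83 ± 0.70 over Lgr5 positive cells (adjusted p = 0.0341) and -5.76 ± 0.90 over Differentiated epithelium (adjusted p = 0.0163). It was 4.97%, 16.5% and 17.9% of claudin FPKM in Foxl1 positive libraries, beside 42.0% to 45.4% in the epithelial ones. Cldn15 was at 132, 107 and 13.3 CPM in Foxl1 positive replicates, lower than in Differentiated epithelium by a log2 fold change of -4.60 ± 1.14 (adjusted p = 0.0405). Tjp3 was at 9.30, 33.9 and 2.74 CPM in Foxl1 positive replicates, likewise lower than in Differentiated epithelium (log2 -4.05 ± 1.10, adjusted p = 0.0493).

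Tjp1, for the ZO-1 scaffold that non-epithelial cells also use, had another pattern than Tjp3. It was at 347, 159.9 and 186 CPM in Foxl1 positive replicates, above both Lgr5 positive libraries and both Differentiated libraries, although not called against Lgr5 positive cells (log2 0.99 ± 0.63, adjusted p = 0.366) or Differentiated epithelium (log2 1.34 ± 0.75, adjusted p = 0.224). Unlike Cdh1 and Epcam it was not lowest in replicate 3. Cldn12 was at 94.6, 31.7 and 43.3 CPM in Foxl1 positive replicates. The other epithelial members were, like Epcam, lowest in replicate 3. Cdh17 was at 444, 818 and 31.8 CPM in Foxl1 positive replicates and did not pass against Lgr5 positive cells (log2 -0.40 ± 1.18, adjusted p = 0.862) or Differentiated epithelium (log2 -3.18 ± 1.32, adjusted p = 0.124). Without replicate 3 Cdh17 was called lower than in Differentiated epithelium (log2 -2.78, adjusted p = 0.016), as it was in 5 of 13 alternatives, this one included. Dsg2 was at 233, 311 and 3.79 CPM, and Dsc2 at 109, 121 and 7.79 CPM. Cldn3 was at 93.0, 37.6 and 10.1 CPM, Cldn4 at 33.1, 0.673 and 0 CPM, Cldn23 at 24.3, 10.2 and 1.26 CPM and Ocln at 13.9, 82.7 and 1.26 CPM.

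**Figure D5:**
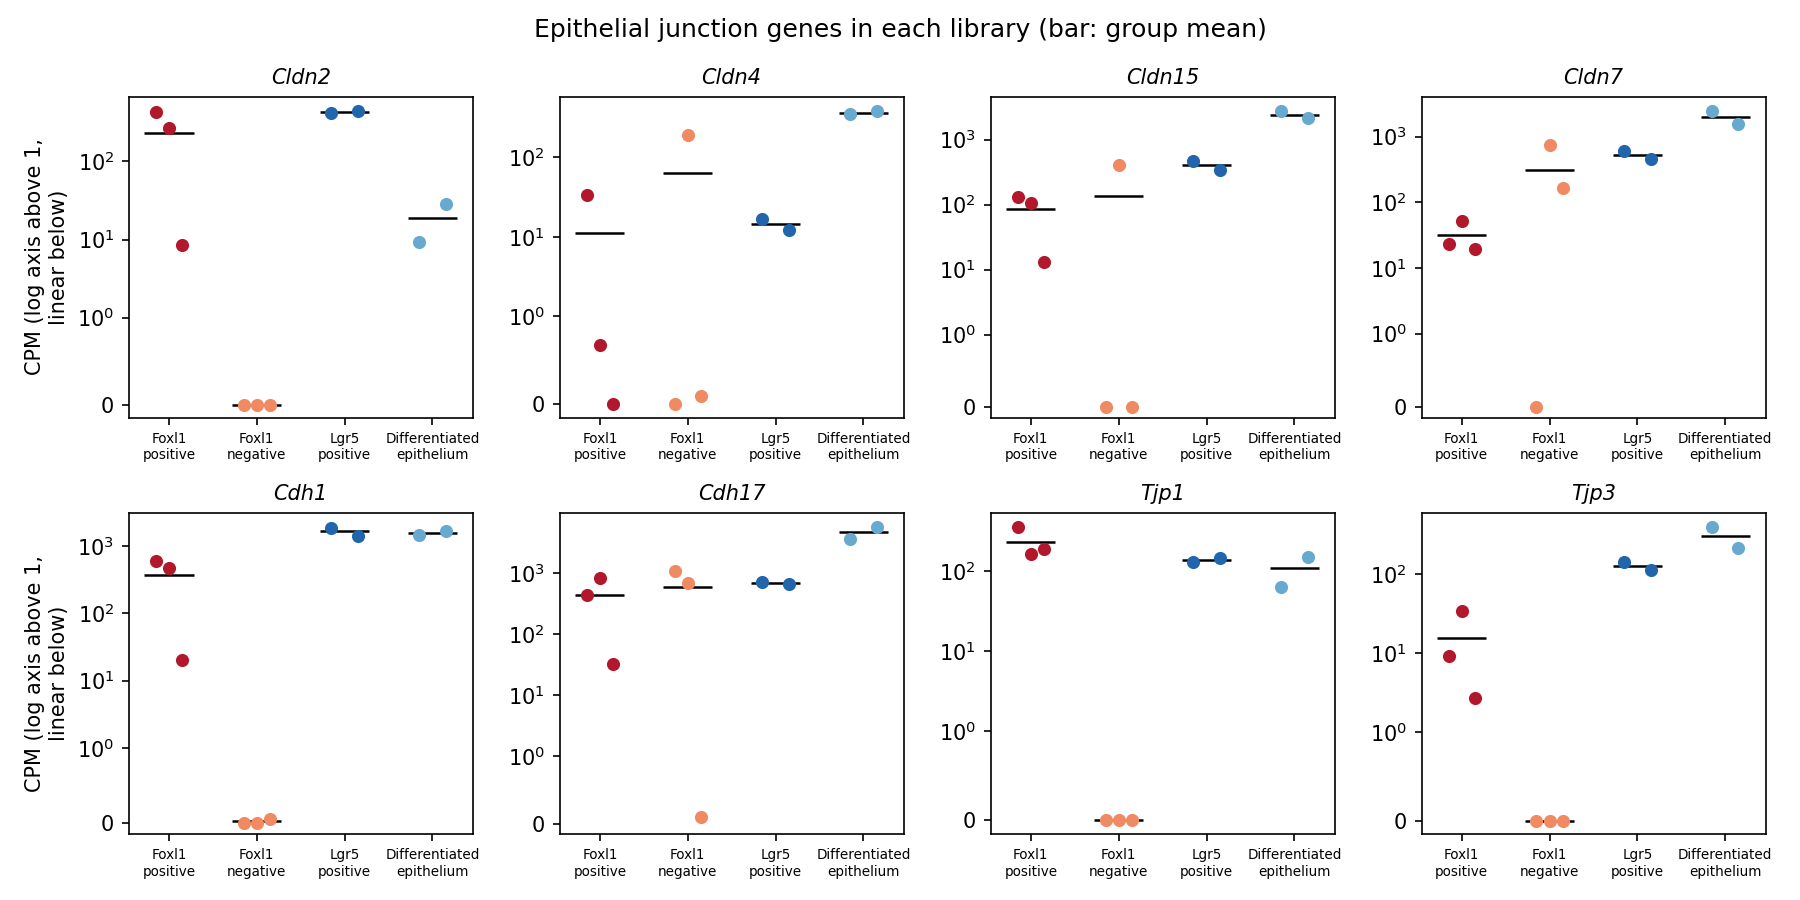
Levels in CPM of 8 epithelial members in each library of the 4 groups, on an axis that is logarithmic above 1 CPM and linear below, with bars at group means. Cldn2 is high in Lgr5 positive cells and in 2 Foxl1 positive libraries, Cldn4, Cldn15 and Cldn7 are highest in Differentiated epithelium, and Tjp1 spans 159.9 to 347 CPM in Foxl1 positive cells.

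Against Foxl1 negative cells, 10 of 17 members tested were higher in Foxl1 positive cells, where 42.2% of all 11204 genes were, and none was lower by edgeR, where 0% were. These 10 passed the filter on low counts through the Foxl1 positive libraries alone, so they could come out in 1 direction only and their count is a description. The members with an unadjusted p under 0.05 were also 10, all of them higher, and DESeq2 called 12 higher and 0 lower. The 10 included Cdh1, Cdh2, Cdh6, Cdh11, Cldn2, Cldn12, Dsg2, Tjp1 and Tjp3, a mixture of epithelial and mesenchymal genes. In the Foxl1 negative libraries 8 of them had no count, and Cdh1 and Cdh11 had 1 count each. With the same floor of 3 counts, Cldn2 was at least 2376-fold higher (adjusted p = 0.0222), Tjp1 at least 2366-fold (adjusted p = 0.0136) and Dsg2 at least 1873-fold (adjusted p = 0.0267). Cldn12 was at least 579-fold higher (adjusted p = 0.0131), Tjp3 at least 157-fold (adjusted p = 0.0123), and Cdh1 had a ratio of 14049.5 (95% counting interval 2521 to 554972, adjusted p = 0.0117). These bounds, and those of Cdh2, Cdh6 and Cdh11 over Foxl1 negative cells, assume that the 3 Foxl1 negative libraries share 1 level. They also take a 0 there as counting error only. Of the 306 common genes, 55.2%, 27.8% and 11.8% likewise had no count in Foxl1 negative replicates 1, 2 and 3, so the bounds may be too high. The replicate block lost all 10 calls, and without Foxl1 positive replicate 1 those of Cldn2 and Dsg2 were lost, and Dsg2 also without replicate 2.

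The members that were counted in Foxl1 negative cells were spread unevenly over its 3 libraries. Cdh17 was at 1069, 686 and 0.0928 CPM in Foxl1 negative replicates, and did not differ by the test from Foxl1 positive cells (log2 0.38 ± 2.33, adjusted p = 0.961). Dsc2 was at 0, 670.1 and 0 CPM, Cldn15 at 0, 404 and 0 CPM, Cldn4 at 0, 191 and 0.0928 CPM, and Cldn7 at 0, 756 and 166 CPM. Cldn3 was at 1.81, 177 and 51.6 CPM and Ocln at 7.86, 0 and 0 CPM. Replicate 2 held most of these junction genes while having no count of Cdh1, Dsg2, Cldn2 or Tjp1. Epcam was at 305, 921 and 78.5 CPM in Foxl1 negative replicates and enterocyte markers summed to 16863, 10468 and 1742 CPM, with Cdx1 and Cdx2 at 0 in all 3. In replicate 1, the library with the most Cdh17, that sum was mainly Fabp1 (6489 CPM), Apoa1 (6432 CPM) and Apoa4 (3654 CPM), which liver also makes, while Sis was at 12.7 CPM and Alpi at 0. Markers of other tissues stood out in the same libraries. Hepatocyte markers (4, 1 and 1 of 4 counted) summed to 46336, 135 and 0.278 CPM in Foxl1 negative replicates 1, 2 and 3, Alb alone giving 35872 CPM in replicate 1, and erythroid markers (2, 1 and 1 of 3) summed to 9680, 39.4 and 0.0464 CPM. B cell markers (1, 2 and 4 of 4) summed to 0.605, 0.266 and 2656 CPM. The part of these cells in the members' levels was not tested. A level of 0 in these libraries says little about the cells, given the share of common genes that also had no count.

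Genes whose products work beside the members were counted from lists, whose counts between the epithelial groups stand beside the 34.4% of all genes that were higher and the 31.9% that were lower. In the desmosome plaque, 1 of 9 genes was higher and 5 lower in Lgr5 positive cells against Differentiated epithelium. Pkp1 (plakophilin-1) was higher (log2 3.14 ± 0.33, adjusted p = 9.19e-05), and Evpl (envoplakin), Jup (plakoglobin) and Pkp3 (plakophilin-3) were lower, by log2 fold changes of -3.36, -2.54 and -2.79. Of 10 catenin and nectin genes tested, 1 was higher and 5 lower, with Pvrl4 (nectin-4) higher (log2 4.94 ± 0.59, adjusted p = 0.000173) and Pvrl2 (nectin-2) lower (log2 -3.17 ± 0.43, adjusted p = 0.000328). Pvrl4 passed the filter on low counts through the Lgr5 positive libraries alone, so it could come out higher only. Of 23 genes of the tight junction plaque and polarity, 5 were higher and 10 lower, led by Cgnl1 (paracingulin), which was higher (log2 5.67 ± 0.49, adjusted p = 3.9e-05), and Pard6b, which was lower (log2 -2.82 ± 0.30, adjusted p = 9.67e-05). Of the gap junction genes, Gjb2, for connexin-26, was higher (log2 1.81) and Gjb1, for connexin-32, was lower (log2 -2.01).

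Among protocadherins and atypical cadherins, 6 of 13 were higher and 6 lower in Lgr5 positive cells. Cdhr2 and Cdhr5, which link the tips of neighbouring microvilli, were at 112 and 139 CPM and at 114 and 147 CPM in Lgr5 positive cells. In Differentiated epithelium they were at 8650 and 8028 CPM and at 6540 and 5046 CPM. The log2 fold changes were -6.05 ± 0.35 for Cdhr2 (adjusted p = 1.48e-05) and -5.47 ± 0.36 for Cdhr5 (adjusted p = 1.85e-05), so both exceeded the change of Cdh17 in size. With all 10 libraries in 1 fit, the calls between the epithelial groups of the listed genes named so far were lost.

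In Foxl1 positive cells 4.84% of all genes were higher and 0.884% lower against Lgr5 positive cells, and 10.6% higher and 7.19% lower against Differentiated epithelium. Dchs1 and Fat4, giant cadherins that bind each other, and the protocadherins Pcdh7 and Pcdh18 were among 5 of 16 genes of their list that were higher against Differentiated epithelium, with 2 lower, and 3 of 17 were higher against Lgr5 positive cells. Dchs1 was at 59.9, 72.2 and 142 CPM in Foxl1 positive replicates and had no count in the other 7 libraries, at least 4761-fold higher than in Lgr5 positive cells (adjusted p = 0.015). Gja1, for connexin-43, was at 39.8, 53.2 and 596 CPM in Foxl1 positive replicates, against 0.0403 and 0.36 CPM in Lgr5 positive cells (log2 10.23 ± 2.11, adjusted p = 0.0446). Jam2, a junction adhesion molecule of endothelium and other cells, was at 52.7, 71.3 and 117 CPM in Foxl1 positive replicates, against 0 and 0.15 CPM in Lgr5 positive cells (log2 10.08 ± 1.59, adjusted p = 0.0242). In Foxl1 negative replicates 1, 2 and 3, Gja1 was at 0, 0.133 and 122 CPM and Jam2 at 59.9, 0 and 0 CPM. Against Lgr5 positive cells, Dchs1, Gja1 and Jam2 passed the filter on low counts through the Foxl1 positive libraries alone. So did Dchs1, Fat4, Pcdh7 and Pcdh18 against Differentiated epithelium, and all these calls could come out higher only. Of the adherens list, 0 genes passed against Lgr5 positive cells by edgeR, with 1 at an unadjusted p under 0.05, and against Differentiated epithelium Pvrl2 alone was lower (log2 -3.91 ± 0.93, adjusted p = 0.0374). The desmosome plaque gave 0 calls against Lgr5 positive cells, with 0 at an unadjusted p under 0.05, and against Differentiated epithelium Pkp3 was lower (log2 -3.89 ± 0.95, adjusted p = 0.039). These counts depended on the unit: over all lists edgeR called 7 genes higher and 0 lower against Lgr5 positive cells, while limma on log2(FPKM + 1) called 7 higher and 16 lower. Against Differentiated epithelium edgeR called 14 higher and 10 lower, and limma 8 higher and 21 lower. The calls of listed genes against Lgr5 positive cells were all lost without Foxl1 positive replicate 1 or 2, without either Lgr5 positive library, and with all 10 libraries in 1 fit. For Dchs1 the adjusted p without these libraries ran from 0.0509 to 0.0789. Those against Differentiated epithelium were all lost without either Differentiated library and with all 10 libraries in 1 fit, and those of Pvrl2 and Pkp3 also without Foxl1 positive replicate 1 or 2.

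The last list held transcription factors known to act on the E-cadherin gene and the splicing regulators Esrp1 and Esrp2. Of 11 tested, 2 were higher in Foxl1 positive than in Lgr5 positive cells. Against Differentiated epithelium, 4 of 11 were higher in Foxl1 positive cells and 2 lower. Zeb1 was at 98.0, 91.8 and 85.6 CPM in Foxl1 positive replicates, against 0 and 0.0376 CPM in Lgr5 positive and 0.547 and 0.863 CPM in Differentiated libraries. It was higher than in Lgr5 positive cells (log2 12.02 ± 1.26, adjusted p = 0.0155) and than in Differentiated epithelium (log2 7.23 ± 0.81, adjusted p = 0.0121). Zeb2 was at 550.3, 170.5 and 246 CPM in Foxl1 positive replicates, with no count in Lgr5 positive cells, and was higher than in Differentiated epithelium (log2 10.19 ± 1.29, adjusted p = 0.0139). In Foxl1 negative replicates 1, 2 and 3, Zeb1 was at 0, 0 and 148.5 CPM and Zeb2 at 0, 51.9 and 0 CPM. Snai2, or Slug, was at 17.1, 28.6 and 44.6 CPM in Foxl1 positive replicates, 2.10 and 2.07 CPM in both Lgr5 positive libraries and 0 in Differentiated epithelium. It was at least 774-fold higher in Foxl1 positive cells (adjusted p = 0.015) and at least 53.5-fold higher in Lgr5 positive cells (adjusted p = 0.000442) than in Differentiated epithelium. In these calls Zeb1, Zeb2 and Snai2 passed the filter on low counts through the higher group alone, so they could come out higher only. Klf4, a factor of differentiated gut epithelium, was lower in Lgr5 positive cells than in Differentiated epithelium (log2 -4.13 ± 0.34, adjusted p = 3.45e-05), as was Ovol1 (log2 -2.27 ± 0.30, adjusted p = 0.00031). In that comparison 4 of 8 factors tested were higher and 3 lower. The calls of Foxl1 positive cells on these factors were lost on leaving out the same libraries: without them the adjusted p of Zeb1 ran from 0.0509 to 0.0789 against Lgr5 positive cells and from 0.107 to 0.139 against Differentiated epithelium.

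The remaining 23 members (11 cadherins, 10 claudins, Dsc1 and Dsc3) stayed below a mean of 10 CPM in every group and were not called, and 5 of them passed the filter on low counts. Their highest level in a library was 21.2 CPM in Foxl1 positive cells, 3.71 CPM in Foxl1 negative cells, 1.64 CPM in Lgr5 positive cells and 0.793 CPM in Differentiated epithelium. Of these, 8 reached 1 CPM in a Foxl1 positive library, 1 in a Foxl1 negative library, 1 in a Lgr5 positive library and 0 in Differentiated epithelium.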

How the data were processed

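RNA of sorted mouse intestinal cells was sequenced; cells were freed with Dispase II and trypsin, column-purified RNA went into a NEB Next library kit, per the labels' protocols. The count table that the authors deposited gives raw whole-number counts per transcript, for 24082 transcripts of 18594 genes with mm9 coordinates. The authors also deposited FPKM values (counts scaled to library size and transcript length) of 29510 transcripts. Per the submitters' processing notes, CASAVA 1.8.2, edgeR and build mm9 were used. Which aligner, counting tool, strand setting and annotation were used is not given in the sources used here, so reads of overlapping or antisense genes may be shared.

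The authors' representative transcript stood for each gene; it was also the transcript with the highest mean count for 48 of the 49 members. CPM used TMM factors computed over the 10 libraries. Each comparison was fitted with its 2 groups alone in edgeR 4.0.16 (R 4.3.3): TMM scaling, the filterByExpr filter per group, robust glmQLFit and a 2-sided glmQLFTest, with Benjamini-Hochberg adjustment over all genes tested and 0.05 as the threshold. The SE is the size of the log2 fold change divided by the square root of the F statistic. Alternatives were median-of-ratios scaling, no filter, DESeq2 1.42.0, all 10 libraries in 1 fit, the transcript with the highest mean count, the replicate number as a block, each library left out, and limma 3.58.1 on log2(FPKM + 1) or log2(FPKM + 0.1) for transcripts at 1 FPKM or more in at least 2 libraries, on which folds of low genes come out too small. The tests were tried on simulated data. Promoter windows are from RefSeq.

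The members, the lists and the tests were chosen with earlier results of these data known. Some genes are not reported here. The other members could all be named, with every library's value for members at a mean of 10 CPM or more in a group or called, and up to 4 genes of each list with the smallest p in a comparison. No label says that the libraries are separate animals, so p-values reflect library spread alone, some of it perhaps technical; no 2 libraries were copies (chi-square per degree of freedom at least 147.6 between replicates). A count of 0 allows up to 3 counts over a group, which is 0.113 CPM for Foxl1 positive, 0.0976 CPM for Foxl1 negative, 0.0192 CPM for Lgr5 positive and 0.0389 CPM for Differentiated libraries. Floors and intervals cover counting error only, since reads lacking molecular identifiers cannot be taken as separate molecules.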

Additional observations from a re-analysis of the deposited data

How the results depend on the processing

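No called member changed direction in the alternatives in which it was tested, with limma on log2(FPKM + 0.1) not compared for members. For members that passed the filter through 1 group alone, among them all 10 called against Foxl1 negative cells, only 1 direction was open. In the comparison with Foxl1 negative cells the calls rested on the fit. There, members higher numbered 5 by limma on log2(FPKM + 1) and 0 with the replicate block, beside 10. With all 10 libraries in 1 fit, 0 members were higher and 0 lower in each of the other 3 comparisons. In Foxl1 positive against Lgr5 positive cells, DESeq2 gave 11 higher and limma 10 lower, beside 2 and 1, and the replicate block gave 5 higher and 4 lower. Against Differentiated epithelium, DESeq2 gave 13 higher and 8 lower, limma 2 and 10, and the replicate block 8 lower, beside 4 and 3. Between Lgr5 positive cells and Differentiated epithelium, limma gave 3 higher and 5 lower, beside 5 and 10, and the replicate block lost 1 call, that of Cldn14 (adjusted p = 0.0563). Foxl1 positive replicate 3 alone, a setting chosen after seeing the data, gave 0 higher against Foxl1 negative cells, 8 higher and 15 lower against Lgr5 positive cells, and 9 higher and 13 lower against Differentiated epithelium. Leaving out 1 library at a time gave 9 to 15 members higher against Foxl1 negative cells; 0 to 4 higher and 0 to 3 lower against Lgr5 positive cells; 0 to 7 higher and 0 to 9 lower against Differentiated epithelium; and 3 to 7 higher and 10 to 13 lower between the epithelial groups. A lone library left in a group is assumed to vary like the other group. The cause was not tested in any of these.

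The signs that turned were those of values not called as reported. For Cdh17 against Foxl1 negative cells they were -0.13 with median-of-ratios scaling, -0.14 by DESeq2, -0.49 with all 10 libraries and -3.46 with replicate 3 alone. Leave-one-out values of Cdh17 there ran from -0.45 to 1.18 and, against Lgr5 positive cells, from -1.25 to 0.16, with 0.087 under the replicate block. Cdh5 against Foxl1 negative cells was 0.23 with no filter, 0.46 by limma, 8.10 with the replicate block and 0.19 with replicate 3 alone (-0.68 to 11.32 leaving out 1 library, the last fitted against a group with no count). Tjp1 against Lgr5 positive cells was -0.19 by limma, and Cldn2 against Differentiated epithelium -1.06 with replicate 3 alone. Cdh1 between the epithelial groups was -0.030 with median-of-ratios scaling and -0.024 by DESeq2 (-0.17 to 0.28 leaving out 1 library), and Tjp1 there ran from -0.18 to 1.08 leaving out 1 library. The scaling moved the median of all genes from 3.47 to 3.21, 0.06 to 0.26, 0.32 to 0.30 and 0.12 to 0.00 in the 4 comparisons.

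Replicate numbers were not taken to pair the libraries: same-numbered deviations correlated at 0.00 to 0.05 between the mesenchymal sorts, and at 0.41 for Lgr5 positive with Differentiated libraries, of which there are 2 pairs only.

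At this depth, group levels under 0.113 CPM (Foxl1 positive) and 0.0976 CPM (Foxl1 negative) could not be detected, and 2 or 3 libraries a group limit every fold.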

Other observations

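Among members of low level, 7 were counted in 1 library only. Cdh10 had 76 counts in Foxl1 positive replicate 1, and Cdh12 had 80 counts in Foxl1 negative replicate 3. Both are cadherins best known from the nervous system, and neither had a count in the other 9 libraries. Foxl1 positive replicate 3 alone held Cdh18 (3 counts), Cdh19 (2 counts) and Cdh22 (4 counts). Cldn11 (2 counts) and Cldn16 (1 count) were seen in Differentiated epithelium replicate 2 alone. Cldn1, a sealing claudin, had 189 counts in Foxl1 positive replicate 2, none in the other Foxl1 positive libraries, and at most 4 counts in any epithelial library. Cdh3, for P-cadherin, had 51 of its 53 Foxl1 positive counts in replicate 3. These genes were chosen after their values were seen, and no test was run on them.

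Some members lie beside each other in the genome (mm9) and yet differed in level. Cldn4 (chr5:135420993-135422804) and Cldn3 (chr5:135462084-135463346) share a stretch of chromosome 5, and Cldn4 had the larger difference between the epithelial groups (log2 -4.67 against -1.34); the difference between them was not tested. Cdh3 (chr8:109034791-109080047) precedes Cdh1 (chr8:109127268-109194146), and in the epithelial libraries Cdh3 had at most 11 counts where Cdh1 had 53203 or more.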
